A study of Homo sapiens with 8 samples.

Results

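The genes that write, copy and remove DNA methylation were followed in human embryonic stem cells on their way to blood. The set held 9 genes, DNMT1, DNMT3A, DNMT3B, DNMT3L, TET1, TET2, TET3, UHRF1 and HELLS, of 19775 genes with a probe set annotated to 1 symbol. They were chosen for their function, and every probe set annotated to exactly 1 of these symbols was taken, 20 in all. The cells were H9, an established human embryonic stem cell line kept on mouse embryonic fibroblast feeders. Day 0 was the undifferentiated culture, which was not sorted, and day 4, day 6 and day 8 were KDR+CD31+ cells sorted during differentiation in serum-free StemPro34 medium with BMP-4 and other factors. Each of the 4 groups had 2 arrays, labelled as biological replicates but with no word on whether cultures were separate, so p-values reflect the scatter of these arrays alone, and so few arrays limit the precision. Day 0 alone was both undifferentiated and unsorted. Time in culture, the differentiation medium with its factors, and sorting therefore cannot be told apart in a comparison with day 0. Of bulk RNA, fewer cells expressing a gene and less of its RNA per cell cannot be told apart either.

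DNA methylation is a methyl mark on cytosine, mostly where a G follows (CpG). DNMT3A and DNMT3B place it on unmarked DNA, with DNMT3L as a partner that has no catalytic activity, and DNMT1 copies it to the new strand after replication, guided by UHRF1, which binds half-marked CpGs. HELLS is a chromatin remodelling helicase needed for methylation of repeats. TET1, TET2 and TET3 oxidise the methyl group, the first step of its active removal. Human embryonic stem cells are known for high DNMT3B and TET1, and TET2 is known for its role in blood stem cells.

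On the brightest probe set of each gene, DNMT3B, TET1 and HELLS were more than 4-fold lower in the sorted cells than at day 0. A second TET1 probe set did not fall, and the other tested HELLS probe sets were lower by amounts that often did not pass the test. DNMT1, UHRF1, DNMT3A and TET3 passed the test on none of their probe sets at any day, DNMT3L lay at the array median throughout, and TET2 was higher on all 6 sorted arrays without passing the test. Among KDR+CD31+ cells of day 4, day 6 and day 8 no probe set of these genes passed. The plot of each gene on every array shows these levels.

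**Figure D1:**
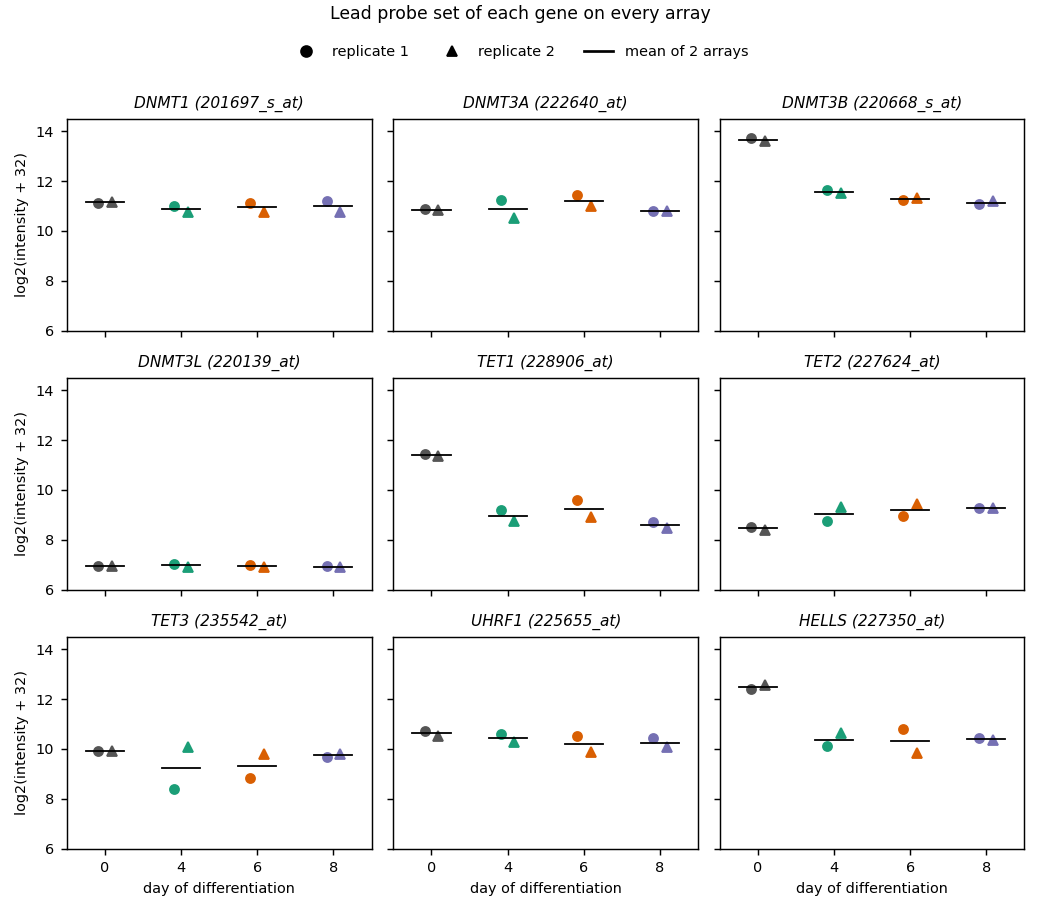
Level of each gene on its brightest probe set, as log2(intensity + 32), against the day of differentiation. Circles are replicate 1, triangles replicate 2 and bars their mean; DNMT3B, TET1 and HELLS sit lower on all 6 sorted arrays than on both day 0 arrays.

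The stretches of DNA just before a listed start of 4 of these genes are shown. They are those of the 3 genes that fell and that of UHRF1, which shares a cell cycle motif with HELLS. Each is the 250 bases upstream of the first start listed for the gene in a RefSeq table of GRCh38.p14. It is read 5′ to 3′ on the gene's own plus strand, with each CpG in capitals. The table lists 1 start for DNMT3B. Whether a listed start is the gene's main one was not checked, so the CpG counts below hold for these windows alone.
DNMT3B, chr20:32779602-32779851: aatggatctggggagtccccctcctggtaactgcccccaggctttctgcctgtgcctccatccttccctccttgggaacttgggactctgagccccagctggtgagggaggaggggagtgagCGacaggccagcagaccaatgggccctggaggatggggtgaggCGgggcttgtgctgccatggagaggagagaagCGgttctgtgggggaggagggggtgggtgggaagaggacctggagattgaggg
TET1, chr10:68560087-68560336: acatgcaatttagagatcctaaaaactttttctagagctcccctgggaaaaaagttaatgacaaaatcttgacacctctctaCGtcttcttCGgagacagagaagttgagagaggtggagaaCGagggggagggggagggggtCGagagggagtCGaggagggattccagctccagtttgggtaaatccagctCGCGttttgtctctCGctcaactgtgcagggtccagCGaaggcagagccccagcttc
HELLS, chr10:94545538-94545787: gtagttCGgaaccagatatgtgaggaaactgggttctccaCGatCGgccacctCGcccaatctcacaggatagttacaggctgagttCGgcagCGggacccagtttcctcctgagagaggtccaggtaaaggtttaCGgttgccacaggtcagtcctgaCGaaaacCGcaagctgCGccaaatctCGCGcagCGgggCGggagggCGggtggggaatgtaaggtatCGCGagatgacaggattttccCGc
UHRF1, chr19:4909251-4909500: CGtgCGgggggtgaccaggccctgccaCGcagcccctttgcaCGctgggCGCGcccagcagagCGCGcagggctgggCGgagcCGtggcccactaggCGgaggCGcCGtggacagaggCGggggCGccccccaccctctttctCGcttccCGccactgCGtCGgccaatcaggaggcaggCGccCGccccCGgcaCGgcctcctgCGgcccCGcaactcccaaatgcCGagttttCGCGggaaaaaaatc
The DNMT3B stretch held 3 CpGs, and 22.9% of the 35116 windows of 250 bases in the RefSeq table held fewer. The TET1 stretch held 9 (45.9% of windows held fewer), the HELLS stretch 18 (63.2%) and the UHRF1 stretch 28 (84.1%). The median window held 11 CpGs. These counts are letters of the reference genome, and methylation was not measured here. For E2F, the factor family of replication genes, the forms TTTCCCGC and TTTGGCGC were searched on both strands, and 1.93% of all windows held at least 1 of them. HELLS held TTTCCCGC on its own strand 8 bases before its start and TTTGGCGC on the opposite strand, beginning 76 bases before it. UHRF1 held TTTCCCGC on the opposite strand, 14 bases before its first start, and its windows at starts 2 and 3 held neither form. Neither form was in the windows of the other 6 members of the table, DNMT1, DNMT3A, DNMT3B and TET1 to TET3, at any of their starts. A CCAAT, the letters bound by NF-Y, stood in the DNMT3B, HELLS and UHRF1 stretches shown, as in 32.01% of windows. Of the 9 genes, 8 were in the RefSeq table, with 19 starts.

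Markers differed between sorted and day 0 cells in the direction of the sort. Of 12 tested pluripotency markers 10, 10 and 11 fell at day 4, day 6 and day 8. Of all genes 8.79%, 12.1% and 12.4% were called lower at these days. The pluripotency markers averaged 8.36 to 8.75 on the sorted arrays against 11.70 and 11.74 in day 0 cells, as log2(intensity + 32). The 14 endothelial markers averaged 11.03 to 12.06 on the sorted arrays against 6.92 and 6.90 in day 0 cells. This list holds the sorted genes KDR and PECAM1, and 6 and 5 of its genes lay above the median of the day 0 arrays, so that its direction was largely fixed by the sort and the filter. The 2 arrays of day 0 were alike (Pearson's r = 0.997 across probe sets, which are not independent), while r for the sorted pairs was 0.935 (day 4), 0.931 (day 6) and 0.974 (day 8). A total of 2824, 2824 and 639 probe sets lay more than 2-fold apart between the arrays of day 4, day 6 and day 8, and 2 between those of day 0. Of 11 blood markers 7 to 9 lay above the median of a sorted array against 5 and 4 on the day 0 arrays, and of 10 endoderm markers 6 to 8 against 4 and 4. Stromal and smooth muscle markers fell in 5 of 10 at each day, against 8.79%, 12.1% and 12.4% of all genes called lower. The mean level of the endoderm markers was 7.26 to 9.32 on the sorted arrays against 7.02 and 7.05 in day 0 cells, of the stromal ones 8.91 to 10.29 against 10.78 and 10.80, and of the blood ones 7.67 to 8.92 against 6.91 and 6.89, and their part in the results was not tested. The ratio of 3′ to 5′ signal of ACTB, a sign of RNA integrity, ran from 9.18 to 31.0 on the sorted arrays against 8.92 and 10.4 in day 0 cells. That of GAPDH ran from 2.15 to 3.73 on the sorted arrays against 1.71 and 1.91 in day 0 cells, without overlap. The part of these ratios in the results was not tested.

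Levels are given below as deposited intensities per array, and changes as differences of log2(intensity + 32), sorted day minus day 0, with the SE from 1 limma fit of all probe sets and p-values adjusted by Benjamini-Hochberg over the 30365 probe sets tested. A probe set was tested if it lay above its array's median on at least 2 of 8 arrays. Of the 20 probe sets 18 were tested. The other 2, 1569385_s_at of TET2 and 234040_at of HELLS, were above the median on 0 arrays. At day 4, 5 of the 18 were called at an adjusted p under 0.05, all of them lower, where 8.1% of all tested probe sets were called lower and 14.4% in either direction. At day 6, 3 were called, all lower, beside 10.7% of all lower and 18.6% either way. At day 8 it was again 3, all lower, beside 11% of all lower and 19.3% either way. The 3 called at day 6 and day 8 were the DNMT3B probe set and the brightest ones of TET1 and HELLS, and day 4 added another pair of HELLS probe sets. Counted by gene on the brightest probe set, 3 of 9 were called lower at each day, against 8.79%, 12.1% and 12.4% of 13647 genes at day 4, day 6 and day 8. The median change of the 18 probe sets was -0.18, -0.21 and -0.17, against 0.02, 0.01 and 0.00 over all tested. On the brightest probe set of each gene it was -0.28, -0.43 and -0.17, against 0.02, -0.03 and -0.03 for all genes. A median does not show how far single members changed, since falls and rises offset each other. The 3 comparisons share the day 0 arrays and are not independent of each other.

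**Figure D2:**
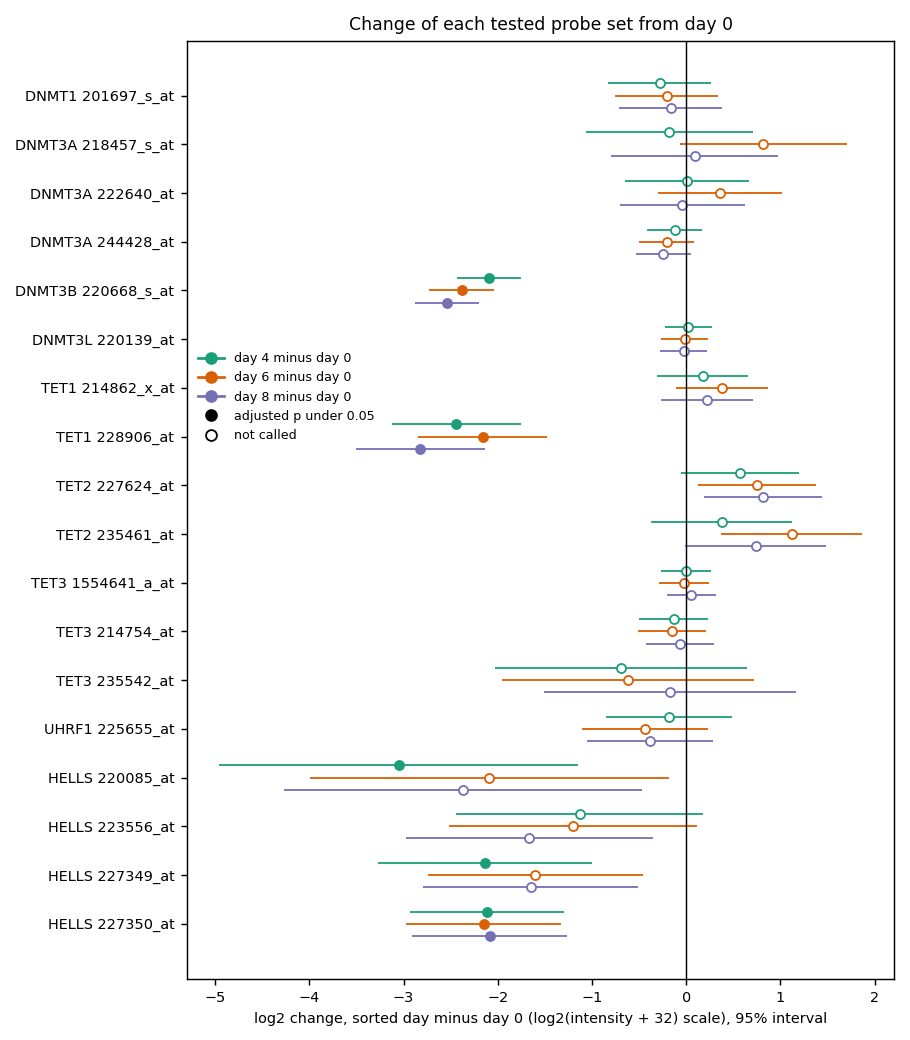
Change of each of the 18 tested probe sets from day 0 on the log2(intensity + 32) scale, with 95% intervals from the limma fit. Filled points passed an adjusted p under 0.05; the DNMT3B interval at day 8 runs from -2.88 to -2.20, and those of DNMT1 and UHRF1 cross 0 at every day.

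DNMT3B, the methyltransferase of early embryos and of pericentromeric repeats, had the narrowest interval of the 3 genes that fell. Its probe set 220668_s_at read 13466 and 12453 in day 0 cells, 3150 and 2877 in day 4 cells, 2410 and 2497 in day 6 cells, and 2122 and 2289 in day 8 cells. All 6 sorted arrays were below both day 0 arrays, and the arrays of each day lay close together. The change was -2.09 ± 0.14 (SE) at day 4, or 4.27-fold lower than at day 0, with limma's adjusted p = 0.000286. It was -2.38 at day 6 (5.22-fold lower, adjusted p = 0.000168). At day 8 it was -2.54 (5.80-fold lower, adjusted p = 0.00013). The difference was thus already larger than 4-fold in the earliest sorted cells. Between day 8 and day 4 DNMT3B differed by -0.44 ± 0.14, with the arrays of the 2 days not overlapping, but this did not survive adjustment in limma (adjusted p = 0.748).

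DNMT3A, the other enzyme that marks new sites, passed the test on none of its 3 probe sets. The brightest, 222640_at, had levels of 10.86 and 10.84 log2(intensity + 32) at day 0, 11.22 and 10.50 in day 4 cells, 11.43 and 10.99 in day 6 cells, and 10.82 and 10.80 in day 8 cells. The arrays of day 4 lay on either side of day 0, both arrays of day 6 above it and both of day 8 just below it. Its changes of 0.01 ± 0.28, 0.36 ± 0.28 and -0.04 ± 0.28 had adjusted p-values of 0.989, 0.436 and 0.94 in limma. The probe set 218457_s_at had 8.49 and 9.47 in day 6 cells against 8.15 and 8.17 in day 0 cells, a change of 0.82 with limma's adjusted p = 0.186. The third, 244428_at, was dim, with levels between 7.23 and 7.60. DNMT3L, which in mouse directs methylation in germ cells, read 91.3 and 91.8 in day 0 cells, 98.9 and 88.5 in day 4 cells, 93.1 and 87.6 in day 6 cells, and 91.4 and 87.2 in day 8 cells. The array medians were between 88.7 and 93.2, and the 4 groups overlapped. A level this near the median allows no statement on whether DNMT3L is expressed, since no detection calls were used here.

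The maintenance pair, DNMT1 and UHRF1, did not pass the test. DNMT1 read 2209 and 2273 in day 0 cells, 1990 and 1699 in day 4 cells, 2209 and 1697 in day 6 cells, and 2342 and 1698 in day 8 cells. Both day 4 arrays and replicate 2 of day 6 and day 8 were below the day 0 arrays, and replicate 1 of day 6 and day 8 lay close to them. The changes were -0.28 ± 0.23, -0.21 ± 0.23 and -0.17 ± 0.23 (adjusted p = 0.499, 0.599 and 0.67 in limma). The 95% interval was -0.83 to 0.27 at day 4 and -0.71 to 0.38 at day 8, so that a fall of the size seen in DNMT3B lay outside it. UHRF1 read 1672 and 1441 in day 0 cells, 1532 and 1211 in day 4 cells, 1434 and 908 in day 6 cells, and 1355 and 1034 in day 8 cells. Both arrays of day 6 and of day 8 were below both day 0 arrays, by less than the scatter allows to be called. Its changes were -0.18 ± 0.28, -0.43 ± 0.28 and -0.38 ± 0.28 (adjusted p = 0.731, 0.349 and 0.391), with an interval of -1.10 to 0.24 at day 6.

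HELLS had 5 probe sets, of which 4 were tested, and on all 4 every sorted array was below both day 0 arrays. The share of all probe sets that lay apart in this way is not given here, so this order is description only. The brightest, 227350_at, read 5378 and 6016 in day 0 cells, 1069 and 1545 in day 4 cells, 1771 and 886 in day 6 cells, and 1348 and 1279 in day 8 cells. It was 4.34-fold, 4.45-fold and 4.25-fold lower than day 0 at day 4, day 6 and day 8, with limma's adjusted p of 0.00917, 0.00734 and 0.00843. The change of -2.12 ± 0.34 at day 4 was thus about as large at day 8, -2.09 ± 0.34. This call rests on both day 0 arrays, since without replicate 1 or replicate 2 of day 0 the adjusted p lay between 0.0591 and 0.0858 at the 3 days, and at day 8 it was 0.0627 without replicate 2 of day 8. The probe set 220085_at read 75.8 and 547 in day 4 cells against 2159 and 1934 in day 0 cells, and its change of -3.05 ± 0.79 had an adjusted p of 0.0498. Replicate 1 was far below replicate 2 of day 4 here, and the call was kept in 5 of 19 alternative analyses. The probe set 227349_at changed by -2.14 ± 0.48 at day 4 (adjusted p = 0.029, called in 14 of 19 alternatives and lost without either day 0 array or replicate 1 of day 4) and 223556_at by -1.13 ± 0.55 (adjusted p = 0.244). At day 6 and day 8 these 3 probe sets had changes between -1.20 and -2.37, with adjusted p-values between 0.0557 and 0.19.

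TET1, the TET enzyme of pluripotent cells, was read by 2 probe sets that disagree. On 228906_at it read 2756 and 2629 in day 0 cells, 556 and 394 in day 4 cells, 742 and 446 in day 6 cells, and 386 and 323 in day 8 cells. All sorted arrays were far below day 0. The change was -2.44 ± 0.29 at day 4 (5.44-fold lower, adjusted p = 0.00256), -2.16 at day 6 (4.48-fold lower, adjusted p = 0.00368) and -2.82 at day 8 (7.08-fold lower, adjusted p = 0.00129) in limma. On 214862_x_at the sorted arrays had levels between 9.45 and 9.97 against 9.49 and 9.32 in day 0 cells, as log2(intensity + 32). Its changes of 0.17, 0.38 and 0.22 did not pass (adjusted p = 0.648, 0.257 and 0.507). A name ending in _x_at marks a probe set some of whose probes can bind other transcripts, and which of the 2 follows TET1 was not tested. The statement that TET1 fell rests on 228906_at alone. The plot of all probe sets shows both patterns.

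**Figure D3:**
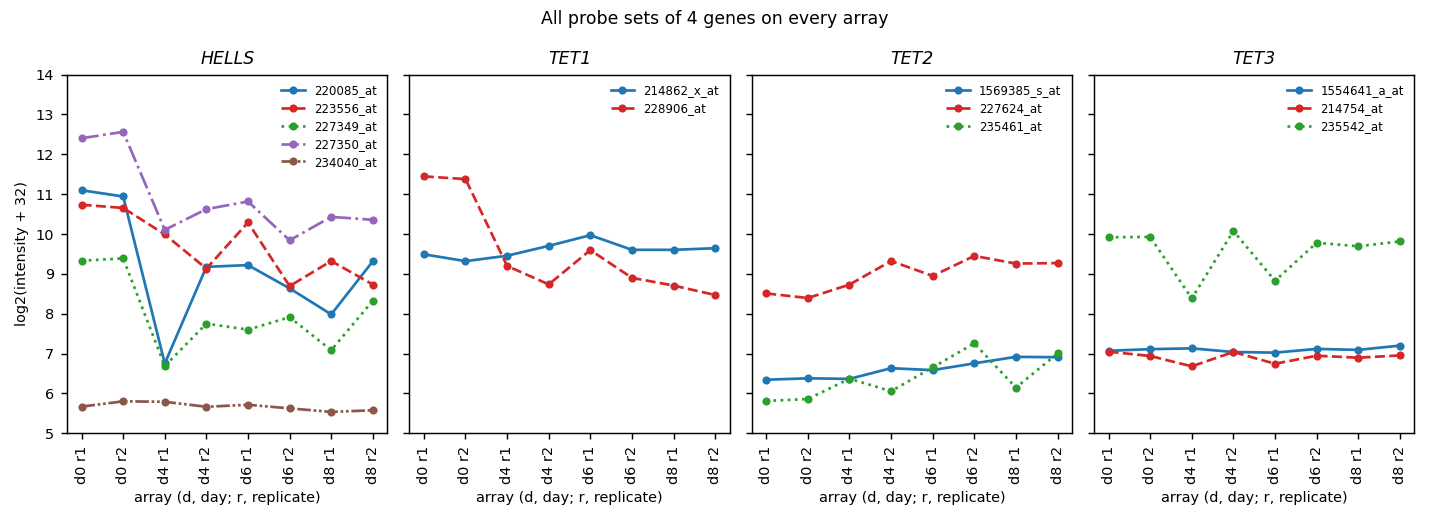
Level of every probe set of 4 genes with several, as log2(intensity + 32), on the 8 arrays in order of day and replicate. The 2 TET1 probe sets part at day 4, and the 4 tested HELLS probe sets are all lower on the 6 sorted arrays than on both day 0 arrays.

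TET2, which limits the self-renewal of blood stem cells, read 332 and 305 in day 0 cells, 393 and 608 in day 4 cells, 462 and 668 in day 6 cells, and 581 and 586 in day 8 cells on 227624_at. All 6 sorted arrays were above both day 0 arrays. As for HELLS, the share of all probe sets that lay apart in this way is not given, so this order is description only. The changes were 0.57 ± 0.26, 0.75 ± 0.26 and 0.81 ± 0.26, and none passed the test in limma (adjusted p = 0.216, 0.0994 and 0.0762). The interval at day 8 was 0.19 to 1.44 before adjustment for the number of probe sets. A second probe set, 235461_at, read 24.2 and 26.1 in day 0 cells, 50.7 and 34.6 in day 4 cells, 68.7 and 121 in day 6 cells, and 38.8 and 96.3 in day 8 cells. It too was higher on every sorted array, by 1.12 at day 6 with an adjusted p of 0.0525, but it passed the filter only through sorted arrays, replicate 2 of day 6 and of day 8, so its direction is no independent support. The untested probe set 1569385_s_at read between 49.3 and 89.0 on the 8 arrays, below their medians.

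TET3, the TET enzyme of the oocyte and zygote in mouse, read 936 and 942 in day 0 cells, 302 and 1047 in day 4 cells, 422 and 847 in day 6 cells, and 795 and 868 in day 8 cells on 235542_at. Replicate 1 of day 4 and of day 6 were low, and the other sorted arrays lay near day 0. The changes of -0.69 ± 0.56, -0.62 ± 0.56 and -0.17 ± 0.56 did not pass in limma (adjusted p = 0.493, 0.511 and 0.873). Without replicate 1 of day 4 the change at day 4 was 0.15. The other TET3 probe sets, 1554641_a_at and 214754_at, were dim, with levels between 6.68 and 7.20 log2(intensity + 32).

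Among the sorted cells, 0 of the 18 probe sets were called between day 6 and day 4, day 8 and day 6, or day 8 and day 4, as were 0 of all 30365 (0%). At an unadjusted p under 0.05, limma gave 1, 0 and 1 member probe sets, beside 1719, 626 and 1890 of all. They were 218457_s_at of DNMT3A between day 6 and day 4, with a difference of 1.00 (limma's adjusted p = 0.871), and DNMT3B between day 8 and day 4. With 2 arrays a day these counts do not show that the levels were equal. TET1 on 228906_at differed by -0.66 between day 8 and day 6 (limma's adjusted p = 0.993), with 386 and 323 in day 8 cells against 742 and 446 in day 6 cells.

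DNMT1, UHRF1 and HELLS act around DNA replication, so genes of replication and mitosis are given beside them. The mean level of 30 S phase genes on replicate 1 and replicate 2 was 10.46 and 9.78 in day 4 cells, 10.30 and 9.50 in day 6 cells, and 9.91 and 9.67 in day 8 cells, against 10.57 and 10.57 in day 0 cells, as log2(intensity + 32). Replicate 1 was the higher array of all 3 sorted days. The same held for DNMT1, by 0.22, 0.37 and 0.46 on the 3 days, and for UHRF1, by 0.33, 0.64 and 0.38. The HELLS probe set 223556_at was higher on replicate 1 by 0.86, 1.60 and 0.59, while 220085_at differed by -2.42 and -1.33 (replicate 1 minus replicate 2) at day 4 and day 8, so the HELLS probe sets disagreed in how replicates differed. The brightest, 227350_at, differed by -0.52, 0.97 and 0.07 at the 3 sorted days, and 227349_at by -1.06, -0.31 and -1.24. TET3 on 235542_at differed by -1.69, -0.95 and -0.12 (replicate 1 minus replicate 2), so replicate 1 was its lower array on all 3 sorted days. The mean of 18 mitosis genes was 11.24 and 10.25 in day 4 cells, 11.27 and 9.84 in day 6 cells, and 10.19 and 9.92 in day 8 cells, against 11.09 and 11.05 in day 0 cells. Of the 30 S phase genes 0 rose, and 2, 4 and 4 fell at the 3 days, among them MCM4, a subunit of the replicative helicase (-1.34 at day 4), and GINS4, of its GINS complex (-1.64). At day 8 CDC6, which loads that helicase, changed by -1.76 and CCNE1, a cyclin of S phase entry, by -1.45. The second GINS4 probe set, 235029_at, did not pass at any day (-0.23 at day 4). That of CDC6, 203967_at, did not pass at any day either (-1.68 at day 8). The count of S phase genes is near the background share, since 6.67%, 13.3% and 13.3% of the list were called against 8.79%, 12.1% and 12.4% of all genes called lower, and its median change was -0.46, -0.70 and -0.73. Of the 18 mitosis genes 1 fell, BUB1B, a checkpoint kinase (-1.60 at day 8), and the list's median was -0.27, -0.40 and -1.01. The part of cell cycle state in the levels of DNMT1, UHRF1 and HELLS was not tested.

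**Figure D4:**
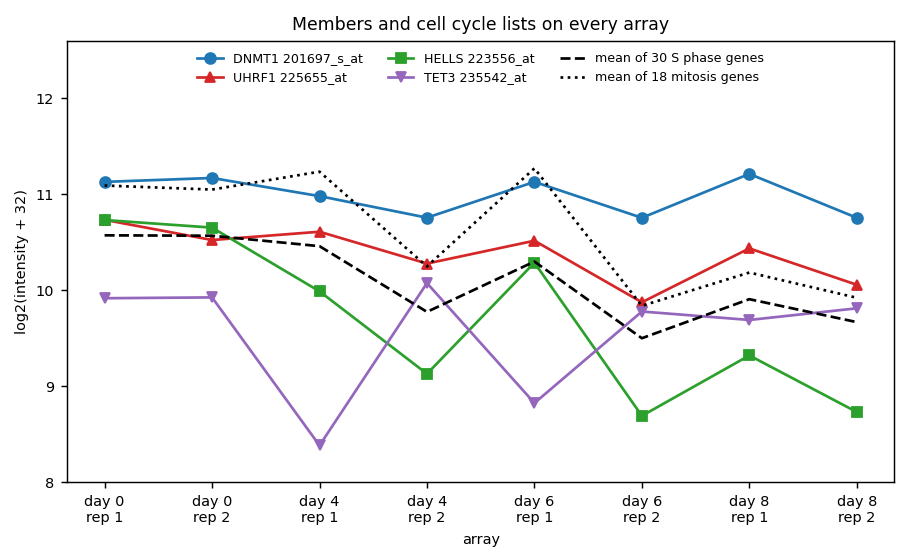
Level of DNMT1, UHRF1, HELLS (223556_at) and TET3 on the 8 arrays, with the mean of 30 S phase genes (dashed) and 18 mitosis genes (dotted), all as log2(intensity + 32). DNMT1, UHRF1, this HELLS probe set and both means are higher on replicate 1 than replicate 2 of each sorted day, and TET3 is lower there; the other 3 tested HELLS probe sets do not keep this order.

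Of 20 tested partners of the methyltransferases 0 rose, and 6, 5 and 6 fell at day 4, day 6 and day 8, where 8.79%, 12.1% and 12.4% of all genes were called lower. The list had medians of -0.33, -0.30 and -0.26 against 0.02, -0.03 and -0.03 for all 13647 genes. ZBTB24, a zinc finger activator of CDCA7, changed by -2.00 at day 4 and -2.02 at day 8 (adjusted p = 0.000909 and 0.000796), and its 3 probe sets were all called lower. ZBTB24, CDCA7, HELLS and DNMT3B are each mutated in forms of ICF syndrome, an immunodeficiency with loss of methylation at pericentromeric repeats. CDCA7, which recruits HELLS to chromatin and is named here after its values were seen, had levels of 12.13 and 10.93 in day 4 cells against 11.73 and 11.67 in day 0 cells, and its changes of -0.17 at day 4 and -0.18 at day 8 did not pass (adjusted p = 0.812 and 0.784). Its paralog CDCA7L changed by -2.38, -2.81 and -2.48 (adjusted p = 0.00619, 0.00283 and 0.00469). DPPA4 and DPPA2, a pair of proteins that keep CpG-rich promoters free of methylation in mouse, changed by -2.45 and -1.42 at day 4. PRDM14, which represses Dnmt3b in mouse stem cells, changed by -2.30. NSD1, whose histone mark draws DNMT3A, changed by -0.64 on its brightest probe set, and its other tested probe sets did not pass. PRDM14 and DPPA4 are also pluripotency markers of the lists used here, so these counts overlap with that pattern.

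The genes of active demethylation and base excision repair showed 0 of 14 higher and 3, 4 and 3 lower at day 4, day 6 and day 8, beside the same 8.79%, 12.1% and 12.4% of all genes, with medians of -0.28, -0.51 and -0.50. They were UNG, a uracil glycosylase (-1.05, -1.63 and -1.35), PARP1, a sensor of strand breaks (-0.93, -1.15 and -1.03), GADD45B, a stress protein linked to demethylation (-1.96, -2.21 and -2.70), and at day 6 the glycosylase SMUG1 (-0.85). On 209304_x_at GADD45B changed by -0.91, -1.22 and -1.44 and passed at day 6 and day 8. On 209305_s_at it changed by -0.28, -0.37 and -0.59 and passed at day 8 alone. The second SMUG1 probe set, 223684_s_at, did not pass at day 6 (-0.44). Of 11 TET cofactors and partners 2 rose and 2 fell at each day, where 7.44%, 8.57% and 9.19% of all genes were called higher and 8.79%, 12.1% and 12.4% lower at day 4, day 6 and day 8. IDH2, the mitochondrial enzyme that makes the TET cosubstrate 2-oxoglutarate, rose by 1.40 at day 4 and 1.11 at day 8 on its brightest probe set. Its other probe set, 210045_at, changed by 0.61 at both days and passed at day 8 alone. CXXC5, a CpG-binding protein, rose by 1.33 at day 6 and 1.22 at day 8 on its brightest probe set, while its other probe sets did not pass. WT1, which binds TET2, rose by 2.45 at day 4 and 1.37 at day 6, but at 6.43 and 6.16 log2(intensity + 32) in day 0 cells it lay below the array medians there and passed the filter only through sorted arrays. SALL4 changed by -2.12 at day 4 and NANOG, which binds TET1, by -5.48, and both are pluripotency markers. The one-carbon cycle, which supplies the methyl donor, had 0 of 13 genes higher and 2, 4 and 4 lower, again beside 8.79%, 12.1% and 12.4% of all genes, with medians of -0.56, -0.47 and -0.54. AHCY, which clears the inhibitory product of methylation, changed by -1.27 at day 6 and -0.86 at day 8. MTHFD2, of the mitochondrial folate pathway, changed by -1.24 and -1.48 at these days, and NNMT, which spends the methyl donor on nicotinamide, by -0.94, -1.16 and -1.10 at day 4, day 6 and day 8.

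**Figure D5:**
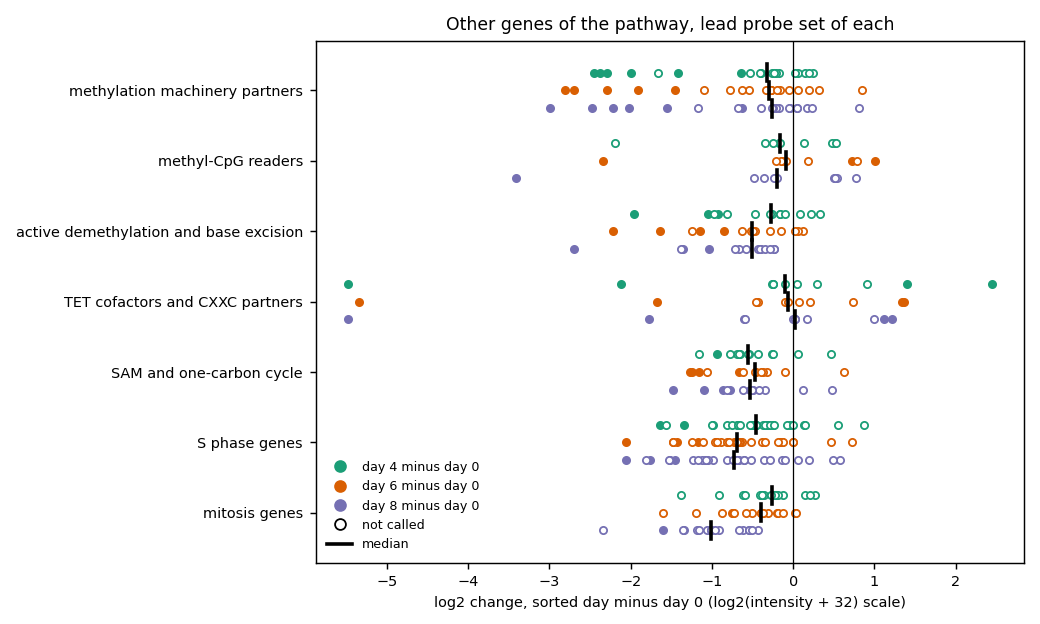
Change from day 0 of the tested genes of 7 lists on their brightest probe sets, on the log2(intensity + 32) scale, with day 4, day 6 and day 8 in separate rows. Filled points passed limma's adjusted p under 0.05 and bars are medians; 0 S phase genes and 0 partners passed as higher.

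Of 9 tested methyl-CpG readers, proteins that bind the mark, 0 passed at day 4. At day 6, 2 rose and 1 fell, where 8.57% of all genes were called higher and 12.1% lower. At day 8, 1 fell, or 11.1% of the readers, beside 12.4% of all genes called lower. Whether these counts differ from the shares of all genes was not tested. MBD1 and MBD6 rose by 0.72 and 1.00 in day 6 cells on their brightest probe sets alone. The other probe sets of MBD1 changed by -0.06 to 0.01 there and those of MBD6 by 0.13 and 0.95, and none of them passed. MBD2, a reader of the NuRD complex, changed on its brightest probe set 214397_at by -2.34 at day 6 and by -3.41 at day 8. A second MBD2 probe set, 214396_s_at, changed by -2.61 at day 8, but 202484_s_at rose by 1.60 there (adjusted p = 0.00323). MBD2 was the 1 gene of 29 called pathway genes whose probe sets were called in opposite directions, so no direction is given for the gene. A set of 20 germline genes that methylation keeps silent in other tissues was hardly measured. Of 19 with a probe set 1 was tested, and 0 or 1 lay above the median of any array, with a mean level between 5.77 and 5.84 log2(intensity + 32) on all 8 arrays.

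The genes whose profile over the 8 arrays lay nearest to a member that was called were found by the root mean square difference of log2(intensity + 32) values, each centred on its mean, among 13646 other genes. For DNMT3B they were KRTCAP3 (0.119), SHANK2 (0.122) and CDCP1 (0.129). For TET1 on 228906_at they were CTNNA2 (0.170), CEBPZ (0.187) and GEM (0.191). For HELLS on 227350_at they were PWAR6 (0.180), PCNX2 (0.183) and GAREM1 (0.183). These distances were picked as the smallest among 13646 genes, so their small size is no result. None of the nearest genes was shared between the 3 members, which does not show that the profiles of these members differ.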

How the data were processed

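RNA of 8 samples was measured on Affymetrix arrays. The authors deposited 1 linear intensity per probe set and array, made with MAS5 per the submitters' processing notes, which give no version here. No detection calls or genome build were used. Groups came from titles. The source name of 3 later samples reads day 4, against their titles, descriptions and stages, which were followed.

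No scaling was added. Values were taken as log2(intensity + 32), which understates changes of dim genes. Of 54675 probe sets 62 were controls, 41091 had 1 symbol in the platform annotation, 1801 several and 11721 none. The probe set with the highest mean led for its gene, with _x_at names used only as a last choice. Tests used limma 3.58.1 in R 4.3.3, fitting group means to the 8 arrays together, with trended eBayes, two-sided, 4 residual and 2.58 prior degrees of freedom. Named genes were up to 6 called genes per list with the largest changes, and the 3 nearest profiles per called member. Members and lists were chosen with earlier results of these data known. The code was tested on simulated data. Alternatives changed the offset, the filter, the scaling, the probe set rule, the eBayes trend, the arrays fitted, a replicate block or a minimum change, or left out an array, whose lone partner was then assumed to vary like the other groups.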

Additional observations from a re-analysis of the deposited data

Results flagged for a closer look

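DNMT3A on 222640_at moved in opposite directions from day 0 at day 8 and at day 6. Both day 8 arrays, with 10.82 and 10.80 log2(intensity + 32), were below the day 0 mean, and both day 6 arrays, with 10.99 and 11.43, were above it. The difference, day 8 minus day 6, was -0.40 ± 0.28 (SE) in limma with an adjusted p of 0.993, so it did not pass the test, and at day 8 the distance from day 0 was 0.04 on the log2 scale. Groups of 2 arrays allow no test for a single array apart from its group.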

How the results depend on the processing

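DNMT3B was called lower at each of the 3 days in 20 of 20 alternatives. TET1 (228906_at) was called in 20, 19 and 20 at day 4, day 6 and day 8, and HELLS (227350_at) in 17, 17 and 16. The count of member probe sets called at day 4 was 3 on the brightest probe set per gene and 2 at a minimum log2 change of 1, against 5. At day 6 it was 6 with only the arrays compared, 5 with a replicate block, 1 at a minimum change of 1 and 9 with replicate 1 left out of both day 4 and day 6, an alternative chosen after seeing the data, against 3. At day 8 these were 7, 6, 2 and 7, against 3. Leaving out 1 array gave 2 to 5 at day 4, 2 to 6 at day 6 and 2 to 6 at day 8, with 2 at each day without either day 0 array, 3 at day 4 without its replicate 1, 6 at day 6 without its replicate 1, 5 there without either array of day 4 or of day 8, and 6 at day 8 without either array of day 4. Within the sorted days the count was 0 in every alternative run. Replicate numbers did not pair all 4 groups, since deviations at day 0 correlated with those of the other days at -0.02, 0.02 and 0.04. Among the sorted days they correlated at 0.61 (day 4 and day 6), 0.36 (day 4 and day 8) and 0.44 (day 6 and day 8), and fits of the 6 sorted arrays with a replicate block, chosen after seeing the data, called 0 member probe sets. Directions turned for members that were not called. DNMT3A (222640_at) at day 4 was -0.0046 after quantile normalization, -0.00077 after median centring, -0.35 with replicate 1 left out of both days, and from -0.35 to 0.37 with 1 array left out, against 0.01, and at day 8 it was 0.069 after quantile normalization. TET3 (235542_at) at day 4 ran from -1.54 to 0.15 with 1 array left out and was 0.15 without replicate 1 of both days. DNMT1 at day 8 ran from -0.39 to 0.063 with 1 array left out.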
